A study of Mus musculus with 6 samples.

Results

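The tissue inhibitors of metalloproteinases (TIMPs) and the membrane-anchored inhibitor gene Reck were examined in RNA-seq of mouse samples labelled thrombus. The 5 genes Timp1, Timp2, Timp3, Timp4 and Reck were taken by symbol from a count table of 17761 genes, and each symbol matched 1 row. The 3 Model samples were inferior vena cava, the large vein of the lower body, ligated and collected with its thrombus 24 h later. The 3 Control samples carry the same tissue label, thrombus, and what was done to those animals is not given in the sources used here. Strain, sex and age are likewise not given. Nothing states that the 3 samples of a group are 3 different mice, so each p-value reflects the variation among these libraries only, part of which may be technical.

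The 4 TIMPs are small secreted proteins whose amino-terminal domain plugs the zinc-containing active site of matrix metalloproteinases (MMPs), enzymes that cut collagens, gelatins and other matrix proteins. The proteins of the family differ in reach. TIMP1 is a weak inhibitor of the membrane-bound MMPs, TIMP2 both inhibits MMP2 and takes part in its activation on the cell surface, and TIMP3 is held in the matrix and also blocks several ADAM and ADAMTS proteases. Reck encodes an unrelated inhibitor that is tethered to the cell membrane. In vessel walls these inhibitors restrain matrix turnover after injury.

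The sequence in front of Timp1 is shown because Timp1 was the member with a called difference. The first line is the stretch upstream of the annotated start, and the second a piece of the first exon, which is 5′ untranslated. Capitals mark AGGAAG, a core bound by ETS factors, and TGAGTAA, a variant of the element bound by AP-1 (dimers of FOS and JUN proteins). Both are RefSeq sequence of GRCm38.p6 on the plus strand.
Timp1 upstream, chrX:20869916-20870165: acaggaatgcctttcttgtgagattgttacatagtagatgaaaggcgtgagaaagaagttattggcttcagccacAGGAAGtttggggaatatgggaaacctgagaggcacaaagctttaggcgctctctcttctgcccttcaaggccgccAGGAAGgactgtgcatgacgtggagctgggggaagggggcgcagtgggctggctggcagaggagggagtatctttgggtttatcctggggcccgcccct
Timp1 first exon, chrX:20870186-20870215: ggtggaTGAGTAAtgcgtccAGGAAGcctg

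Counting the annotated start as base 1, TGAGTAA begins at base 27 of Timp1 and was not found on either strand of the matching 300-base windows of Timp2, Timp3, Timp4 and Reck. It occurs in 2.68% of 32851 promoter windows of that length in RefSeq. AGGAAG occurs 3 times in the Timp1 window, beginning at bases -175, -99 and 41, once each in the Timp3 and Timp4 windows, and in 35.4% of all windows. The other motifs searched on both strands, TGANTCA (AP-1), TTCNNNGAA (STAT factors) and the NF-kB consensus, were not found in any window of the 5 genes, against 7.81%, 8.3% and 0.411% of all windows. None of these motifs overlapped another in the windows of the 5 genes. The windows were set by RefSeq starts. That of Timp2 (chromosome 11, 118355362 to 118355661) lies inside the gene as annotated by GENCODE, whose coordinates are given below. The letters describe the windows and say nothing of which factors act there.

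Mouse Timp1, Timp3 and Timp4 each lie inside a synapsin gene, on the opposite strand (GENCODE release M21, GRCm38). Timp1 (ENSMUSG00000001131, chromosome X, 20870166 to 20874735) lies in an intron of Syn1 and shares no exon base with it. Timp3 (ENSMUSG00000020044, chromosome 10, 86300372 to 86349506) lies inside Syn3, and 1733 bp of its exons, 21.3% of their length, overlap exons annotated for Syn3. Timp4 (ENSMUSG00000030317, chromosome 6, 115241892 to 115252205) lies inside Syn2 and shares 90 bp of exon with it. Timp2 (ENSMUSG00000017466, chromosome 11, 118301069 to 118355740) overlaps the locus of Cep295nl without shared exon bases, and Reck (ENSMUSG00000028476, chromosome 4, 43875530 to 43944806) overlaps no other gene of the table.

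**Figure D1:**
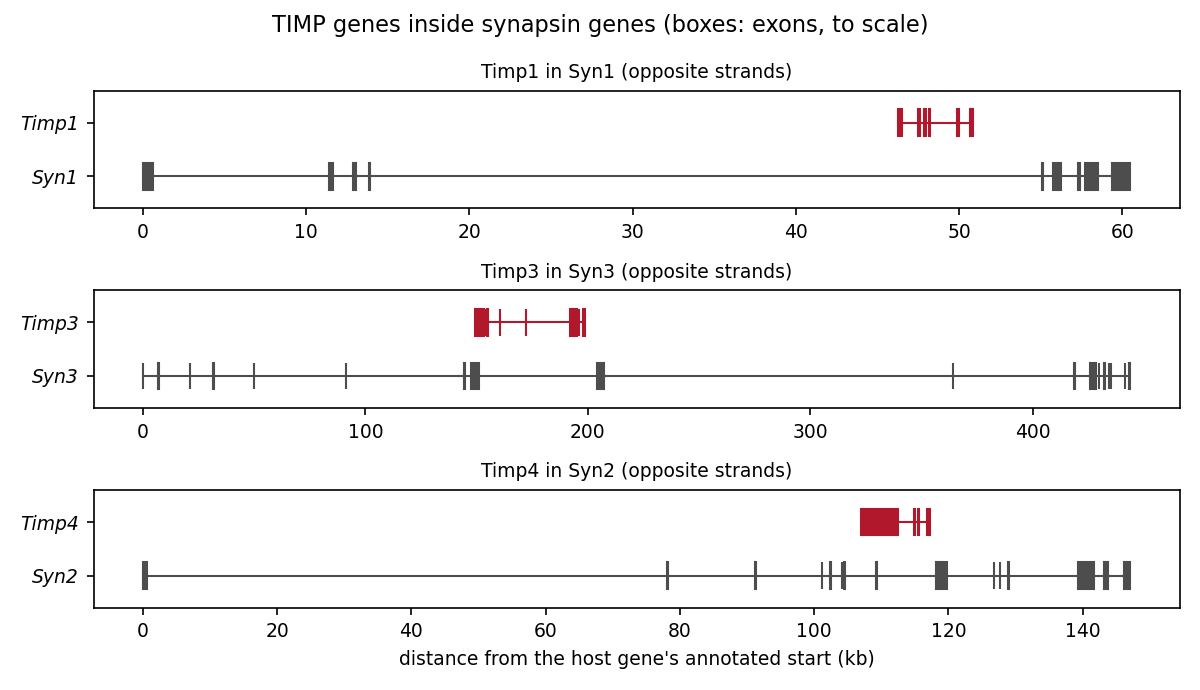
Exons (boxes) and spans (lines) of 3 TIMP genes and the synapsin genes around them, drawn to scale as distance in kb from the host gene's annotated start. Timp1 sits in an intron of Syn1, while Timp3 and Timp4 overlap exon sequence of Syn3 and Syn2 by 1733 and 90 bp.

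Total counts were 25336173 to 28193281 in Model libraries and 31924426 to 38118463 in Control libraries. Model 2 held liver transcripts (4653 CPM summed over 5 markers, against 30.9 to 543 CPM in the other 5 libraries; CPM is the count scaled to a common library size). Endothelial markers summed to 1723 to 2607 CPM in Model and 1751 to 2067 CPM in Control libraries. Smooth muscle markers summed to 1075 to 2620 CPM in Model and 2892 to 4498 CPM in Control libraries. The samples of both groups thus held transcripts of both lists, and which vessels or tissues these came from was not tested.

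Timp1 was at a very low level in Control and among the more abundant transcripts in Model. It had 1475, 1618 and 3646 counts in Model 1 to 3, against 37, 46 and 39 counts in Control 1 to 3. Scaled with TMM factors (trimmed mean of M values), this was 59.6, 58.9 and 144 CPM in Model and 1.05, 1.12 and 1.15 CPM in Control. All 3 Model libraries lay far above all 3 Control libraries, Model 3 the highest. The log2 fold change was 6.30 (SE 0.56, 95% interval 5.09 to 7.51), a 78.8-fold difference, with a p of 6.00e-05 after Benjamini-Hochberg adjustment over 13907 tested genes (quasi-likelihood test of edgeR, used for every adjusted p unless another tool is named). Only 13 tested genes had a larger log2 fold change.

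Timp1 was the only member of the family past the threshold of 0.05, 1 of 5, where 4.07% of all tested genes passed (377 higher, 2.71%, and 189 lower, 1.36%). DESeq2 called 9.05% of genes (4.75% higher, 4.3% lower) and limma-voom 3.32% (2.5% higher, 0.827% lower), and with both Timp1 was again the 1 member called. Timp1 and Timp3 were the 2 members whose groups did not overlap, beside 23.5% of all tested genes. The Timp1 call held in each of 14 alternative settings, with adjusted p up to 0.0292 under limma-voom. Without 1 library at a time, its log2 fold change was 5.74 (without Model 3) to 6.51 (without Model 1 or Model 2).

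**Figure D2:**
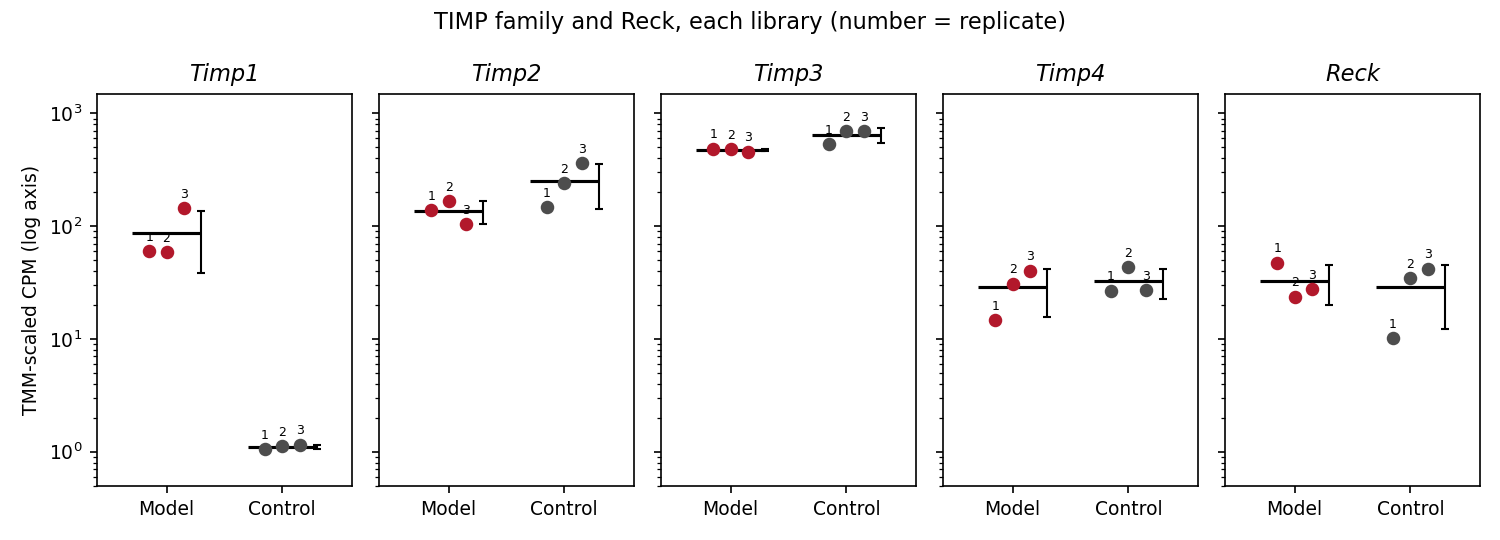
TMM-scaled CPM (log axis) of the 5 genes in each library, Model left and Control right in each panel, with the mean (line) and SD (bar) of 3 libraries. Timp1 is at 58.9 to 144 CPM in Model and 1.05 to 1.15 CPM in Control, while Timp2, Timp4 and Reck overlap between the groups.

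The host gene of Timp1 showed no called difference. Syn1, a coat protein gene of synaptic vesicles, had 28, 172 and 494 counts in Model 1 to 3, against 8, 1066 and 27 counts in Control 1 to 3. Control 2, with the most Syn1 counts of all 6 libraries, had 46 Timp1 counts, close to the 37 and 39 of the other Control libraries. The log2 fold change of Syn1 was -0.01, with an SE of 1.51 and an adjusted p of 0.999. By counts, the libraries of each group fell in the same order for Syn1 and Timp1. By CPM the order differed in both groups. Syn1 was at 1.13, 6.26 and 19.5 CPM in Model 1 to 3 and 0.226, 26 and 0.795 CPM in Control 1 to 3. Timp1 was at 59.6, 58.9 and 144 CPM in Model and 1.05, 1.12 and 1.15 CPM in Control. The part of host gene reads in the Timp1 counts was not tested.

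Markers of blood cells were higher in Model together with Timp1. In bulk tissue, more cells of a type and more RNA per cell cannot be told apart. Of 8 tested neutrophil markers 7 were called higher (4 with limma-voom), beside 2.71% of all tested genes (2.5% with limma-voom), and the 10 listed genes summed to 2157, 6356 and 2174 CPM in Model and 29.1, 49.2 and 107 CPM in Control. The remaining 2 did not pass the filter: Ly6g had 1, 337 and 147 counts in Model and 0 in all 3 Control libraries, and Camp had 1, 0 and 0 counts in Model and 0, 48 and 0 counts in Control. Of 10 platelet markers 9 were called higher (5 with limma-voom), with sums of 1981, 1624 and 769 CPM in Model and 285, 149 and 163 CPM in Control. Some called markers, among them Csf3r (2, 3 and 2 counts in Control) and Gp9 (4, 10 and 9), passed the filter only through the Model libraries. Such genes could be called only as higher in Model. All 5 red cell markers were called higher, with sums of 15244, 28648 and 4891 CPM in Model and 301, 357 and 444 CPM in Control. Within the Model group the order differed from that of Timp1: Model 3 had the highest Timp1 level and the lowest platelet and red cell sums, and Model 2 had the highest neutrophil sum and a Timp1 level close to that of Model 1. Among 7 tested macrophage markers none was called (edgeR; at an unadjusted p under 0.05, 0 higher and 1 lower; 0 with DESeq2). Lymphocyte markers were lower in Model. Of 5 T cell markers 3 were called lower (1 with limma-voom), and of 5 B cell markers 2 (2 with limma-voom). Beside these, 1.36% of all tested genes were called lower (0.827% with limma-voom). The part of these cells in the Timp1 difference was not tested.

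**Figure D3:**
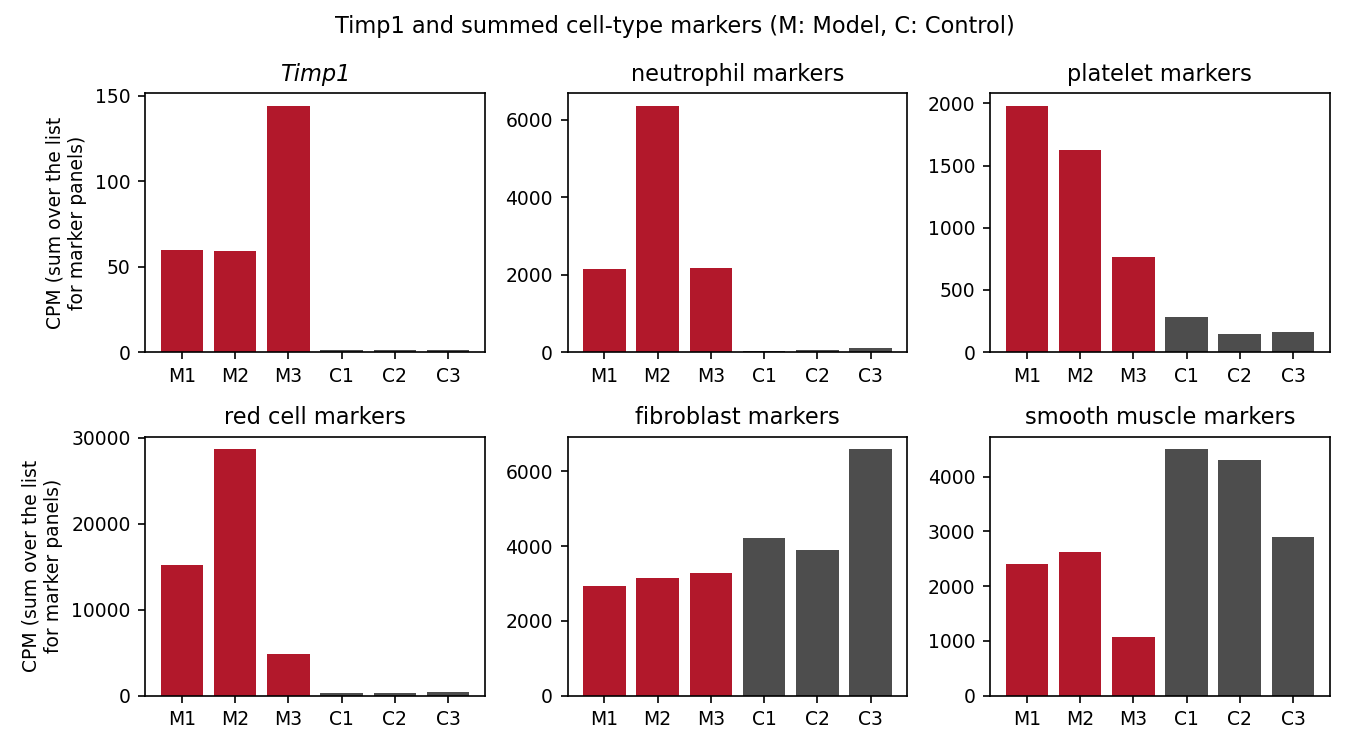
Timp1 (CPM) and the summed CPM of 5 marker lists in each library, Model (M, red) left of Control (C, grey); each panel has its own axis from 0. Neutrophil, platelet and red cell sums are higher in every Model library, and Timp1 is highest in Model 3, where the platelet sum is 769 CPM against 1981 and 1624 CPM in the other Model libraries.

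The 2 abundant members, Timp2 and Timp3, had lower means in Model, and neither passed the test. Timp2, the inhibitor with a second role in activating MMP2, stood at 139, 167 and 104 CPM in Model 1 to 3, against 147, 239 and 363 CPM in Control 1 to 3. The groups overlapped through Control 1, which lay between Model 1 and Model 2. Its log2 fold change was -0.87 (SE 0.32, 95% interval -1.57 to -0.17), with an unadjusted p of 0.019 and an adjusted p of 0.192. Without a filter on low counts, which let the test call 6.26% of 17761 genes (3.61% higher, 2.64% lower), Timp2 was called lower (-0.89, adjusted p = 0.0422). Without Control 1 the log2 fold change was -1.16 (adjusted p = 0.0676), and without Control 3 it was -0.50 (adjusted p = 0.594).

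Timp3, the matrix-bound member, had 484, 480 and 458 CPM in Model 1 to 3, against 532, 695 and 697 CPM in Control 1 to 3. Every Model library was below every Control library, as was the case for 11.4% of all tested genes, and the Model libraries were close to each other (474 ± 14.2 CPM, against 641 ± 94.7 CPM in Control; SD, n = 3 each). The log2 fold change was -0.44 (SE 0.23, 95% interval -0.94 to 0.06, adjusted p = 0.393). Syn3, whose exons overlap those of Timp3, was at 1.62 to 10.4 CPM in Model and 2.15 to 5.21 CPM in Control, far below Timp3 in every library.

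Fibroblast and smooth muscle marker sums were also lower in Model. The 8 fibroblast genes summed to 2926, 3150 and 3287 CPM in Model and 4217, 3891 and 6588 CPM in Control. The largest Control means were those of 3 collagen genes: Col3a1 (1025 CPM in Model, 2006 CPM in Control), Col1a2 (623 and 1126) and Col1a1 (494 and 866). Of the 8 log2 fold changes 6 were negative and 2 positive, those of Pdgfra (0.18) and Dcn (0.27). None of the 8 was called by edgeR (0 higher and 3 lower at an unadjusted p under 0.05, the 3 collagen genes). DESeq2 called 3 lower and limma-voom 1, beside 4.3% and 0.827% of all tested genes. None of 6 smooth muscle genes was called by edgeR (0 higher and 3 lower at an unadjusted p under 0.05). DESeq2 called 2 of them lower and limma-voom 2, beside the same shares. The share of all tested genes at an unadjusted p under 0.05 was not computed. In either direction, 1374 of 13907 tested genes had an unadjusted edgeR p no larger than the 0.019 of Timp2. Control 3, the library with the highest Timp2 level, also had the highest fibroblast sum. The part of these cells in the values of Timp2 and Timp3 was not tested.

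Timp4 and Reck showed no called difference. Timp4, a member best known from heart and fat, was at 14.7, 31.0 and 40.4 CPM in Model and 26.7, 43.5 and 26.9 CPM in Control. Model 1 was the lowest and Control 2 the highest library, and the groups overlapped (log2 fold change -0.17, SE 0.51, 95% interval -1.29 to 0.94, adjusted p = 0.927). Its sign turned without Control 2 (0.10) or Model 1 (0.14). Adipocyte markers summed to 7815, 4678 and 9884 CPM in Model and 6250, 7841 and 6462 CPM in Control, and cardiac muscle markers to 13.7, 13.8 and 3.03 CPM in Model and 18.7, 59.7 and 19.9 CPM in Control. Syn2, the host of Timp4, had 42.8, 51.3 and 23.0 CPM in Model and 48.9, 127 and 40.3 CPM in Control. Control 2 was the highest library for both Timp4 and Syn2, while Model 3, the highest Model library for Timp4, was the lowest for Syn2. Syn2 was not called (log2 fold change -0.88, SE 0.49, adjusted p = 0.414).

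Reck was at 47.3, 23.6 and 27.5 CPM in Model 1 to 3, against 10.1, 34.7 and 41.8 CPM in Control 1 to 3. The highest value was in Model 1 and the lowest in Control 1. The log2 fold change was 0.18 (SE 0.57, 95% interval -1.06 to 1.42, adjusted p = 0.934), and it turned negative without Control 1 (-0.24), without Model 1 (-0.18), or without Control 1 and Model 2 together (-0.03). The intervals of Timp4 and Reck include a 1.91-fold and a 2.68-fold higher level in Model and 0.41 and 0.48 times the Control level. Gpr124, the membrane partner of Reck in Wnt7 signalling of brain endothelium, was at 51.3 to 71.3 CPM in Model and 34.5 to 65.1 CPM in Control, and was not called (adjusted p = 0.83). Wnt7b was at most 2.22 CPM in any library. Wnt7a was not analysed here.

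Levels of different genes were compared on a per-length scale (TPM, transcript units), computed here as counts per kb of annotated exon scaled to the same sum in each library. In Model the order was Timp1 (384 ± 238 TPM), Timp3 (222 ± 9.4), Timp2 (132 ± 22.9), Reck (26.2 ± 10.2) and Timp4 (18.7 ± 9.23; SD, n = 3 each). In Control it was Timp3 (361 ± 70.6 TPM), Timp2 (294 ± 128), Reck (28 ± 16.4), Timp4 (25.4 ± 9.29) and Timp1 (5.69 ± 0.548). On this exon-union scale Timp1 was first of the 5 in every Model library and last in every Control library; the first place depends on the length used, as given with the shares. Reck and Timp4 overlapped in both groups, and Timp3 and Timp2 overlapped in Control and not in Model. Among 13824 tested genes with an annotated length, Timp1 exceeded 97.7% of genes in Model and 16% in Control.

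As a share of the 4 Timp genes, again per kb of exon, Timp1 made up 40.7%, 38.3% and 64.3% in Model 1 to 3, against 1.08%, 0.812% and 0.7% in Control 1 to 3. The groups did not overlap, and the exact two-sided permutation p of 0.1 is the smallest that 3 against 3 samples allow. Timp2 made up 19% ± 7.44 in Model and 41.6% ± 8.09 in Control, and Timp3 30.8% ± 7.4 in Model and 53.8% ± 6.92 in Control (SD, n = 3 each). The share depends on the length used, since the 8144 bp exon union of Timp3 is far longer than the 888 bp of Timp1. With the longest annotated transcript, a length added after the data were seen, the Timp1 share was 39.2% ± 13.8 in Model and 0.613% ± 0.121 in Control, and that of Timp3 42.7% ± 8.59 in Model and 65.5% ± 6.33 in Control. With coding length the Timp1 share was 12.4% ± 6.54 in Model and 0.128% ± 0.0232 in Control, and that of Timp3 65.8% ± 4.17 in Model and 71% ± 5.57 in Control. With either length Timp3 had the highest mean share in both groups.

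**Figure D4:**
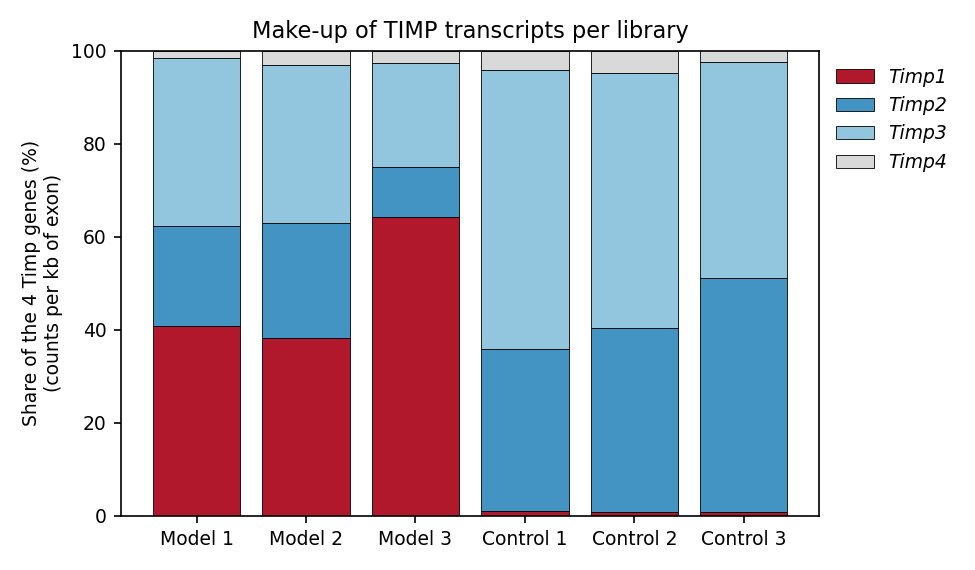
Share of each Timp gene in the summed counts per kb of exon of the 4 Timp genes, 1 bar per library, Model left of Control. Timp1 makes up 38.3% to 64.3% in Model and 0.7% to 1.08% in Control.

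Ratios within a library do not depend on library scaling. There were 0.43, 0.353 and 1.39 Timp1 counts per Timp2 count in Model 1 to 3, against 0.00713, 0.00469 and 0.00316 in Control 1 to 3. The log2 ratio differed by 6.96 between the groups for Timp1 to Timp2 and by 6.58 for Timp1 to Timp3, both without overlap. Each had an exact two-sided permutation p of 0.1, the smallest possible, and 0.2 adjusted over the 4 ratios computed. Timp3 to Timp2 differed by 0.38 (p = 0.5, exact permutation) and Timp4 to Timp2 by 0.55 (p = 0.4, exact permutation). Both overlapped between the groups.

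Transcripts of some of the enzymes that TIMPs inhibit were also higher in Model. Protein level and enzyme activity were not measured. Of 23 MMP genes listed, 21 had a row and 16 passed the filter on low counts (Mmp1a and Mmp1b were not analysed here). Of the 16 tested MMP genes 4 rose and none fell by edgeR (0 lower also at an unadjusted p under 0.05 and with DESeq2), beside 2.71% of all tested genes called higher, and the median log2 fold change was 0.69, against -0.01 over all tested genes. Mmp8, a neutrophil collagenase and also one of the neutrophil markers, had 62.9, 280 and 99.1 CPM in Model and 0.934, 2.36 and 1.94 CPM in Control (log2 fold change 6.39, SE 0.65, adjusted p = 1.59e-04). Mmp9, the gelatinase whose proenzyme binds TIMP1, had 39.1, 174 and 94.2 CPM in Model and 0.679, 7.62 and 12.1 CPM in Control (log2 fold change 3.91, SE 0.84, adjusted p = 0.0215). For both genes Model 2, the library with the highest neutrophil sum, was highest.

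The other MMP genes that rose were Mmp14 and Mmp19. Mmp14 encodes the membrane MMP that TIMP2 and TIMP3 inhibit and TIMP1 hardly does. It was at 236, 197 and 173 CPM in Model and 42.9, 62.4 and 107 CPM in Control, all 3 Model libraries being higher (log2 fold change 1.51, SE 0.33, adjusted p = 0.0226). Mmp19 was at 189, 118 and 206 CPM in Model and 15.1, 28.1 and 32.3 CPM in Control (log2 fold change 2.76, SE 0.36, adjusted p = 9.91e-04). Mmp2, the partner of TIMP2, was at 72.2, 84.5 and 39.7 CPM in Model and 31.7, 67.4 and 110 CPM in Control (log2 fold change -0.09, adjusted p = 0.959). Mmp3, stromelysin, had higher values in every Model library (39.9 to 161 CPM, against 0.793 to 19.8 CPM in Control) and an adjusted p of 0.0564. Mmp14 lost its call without Control 1 (adjusted p = 0.0663), Control 2 (0.0661) or Model 1 (0.0921), and Mmp9 without Model 2 (0.0647). The count was 2 with limma-voom, where Mmp8 (adjusted p = 0.0604) and Mmp9 (0.0758) lost their calls. It was also 2 without Control 1 and Model 2 together, where Mmp9 (0.0534) and Mmp14 (0.124) lost theirs.

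Of 9 ADAM genes listed 8 were tested. Of these membrane proteases that shed surface proteins 2 rose and none fell, beside 2.71% and 1.36% of all tested genes (DESeq2 2 higher and 1 lower, beside 4.75% and 4.3%; 1 lower at an unadjusted p under 0.05). Adam9 was at 239, 253 and 270 CPM in Model and 114, 108 and 99.9 CPM in Control (log2 fold change 1.24, SE 0.22, adjusted p = 0.00748). Adam8, a protease of leukocytes, was at 166, 281 and 151 CPM in Model and 94.6, 26.8 and 31.4 CPM in Control (log2 fold change 1.97, adjusted p = 0.0299). Its call was lost without Control 2 (adjusted p = 0.0709), Control 3 (0.0781), Model 1 (0.0781) or Model 2 (0.0951), and the count was 1 without Control 2, Control 3 or Model 1. Without Model 2 the count was 1 higher and 1 lower, and without a filter on low counts 2 higher and 1 lower. Adam17, the sheddase of TNF that TIMP3 inhibits, was at 10.8, 15.9 and 15.1 CPM in Model and 3.88, 8.5 and 2.97 CPM in Control (log2 fold change 1.45, SE 0.93, adjusted p = 0.505). Adam10, which TIMP1 and TIMP3 inhibit, had a log2 fold change of 0.25 (adjusted p = 0.739). Adam33 was lower in every Model library, at 4.73, 13 and 1.62 CPM in Model and 27.6, 34.2 and 42.1 CPM in Control, and was not called (log2 fold change -2.42, SE 0.77, adjusted p = 0.117).

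Of 19 ADAMTS genes listed, 18 had a row and 14 were tested (Adamts14 was not analysed here). Of the 14, secreted proteases of proteoglycans and procollagens, 4 rose and none fell, beside 2.71% and 1.36% of all tested genes (DESeq2 7 higher and 1 lower, beside 4.75% and 4.3%; 2 lower at an unadjusted p under 0.05), with a median log2 fold change of 1.01. Adamts4, an aggrecanase that TIMP3 inhibits, was at 155, 126 and 219 CPM in Model and 1.05, 5.36 and 12.1 CPM in Control (log2 fold change 4.76, SE 0.69, adjusted p = 0.0019). Adamts1 was at 1101, 856 and 669 CPM in Model and 193, 187 and 246 CPM in Control (2.07, SE 0.27, adjusted p = 8.72e-04), and Adamts9 at 1189, 671 and 608 CPM in Model and 217, 233 and 193 CPM in Control (1.94, SE 0.29, adjusted p = 0.00249). Adamts15 had a log2 fold change of 1.40 and lost its call without Control 2 (adjusted p = 0.105), Control 3 (0.106), Model 1 (0.0558), Model 2 (0.0861) or Model 3 (0.0811). Adamts5, the other main aggrecanase, was at 121 to 239 CPM in Model and 58.3 to 86.9 CPM in Control, with an adjusted p of 0.0552. Adamts20 lay on the other side, at 20, 8.74 and 6.46 CPM in Model and 98.5, 47 and 24.2 CPM in Control, with an adjusted p of 0.0649. The ADAMTS count was 3 higher and 1 lower without Control 3. It was 5 higher and 1 lower with replicate number as a block, and also without a filter on low counts. On the per-length scale in Model, Adamts1 (627 ± 143 TPM) stood above Timp1 in mean, and Mmp8 (227 ± 166), Mmp3 (213 ± 119), Mmp19 (187 ± 60.4), Mmp14 (129 ± 18.5) and Mmp9 (109 ± 67.4) stood below it (SD, n = 3 each). Of these, Adamts1 in Model 3 (514 TPM against 659 TPM for Timp1), and Mmp3 (320) and Mmp8 (415) in Model 2 (against 238 TPM for Timp1), fell on the other side within a library.

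**Figure D5:**
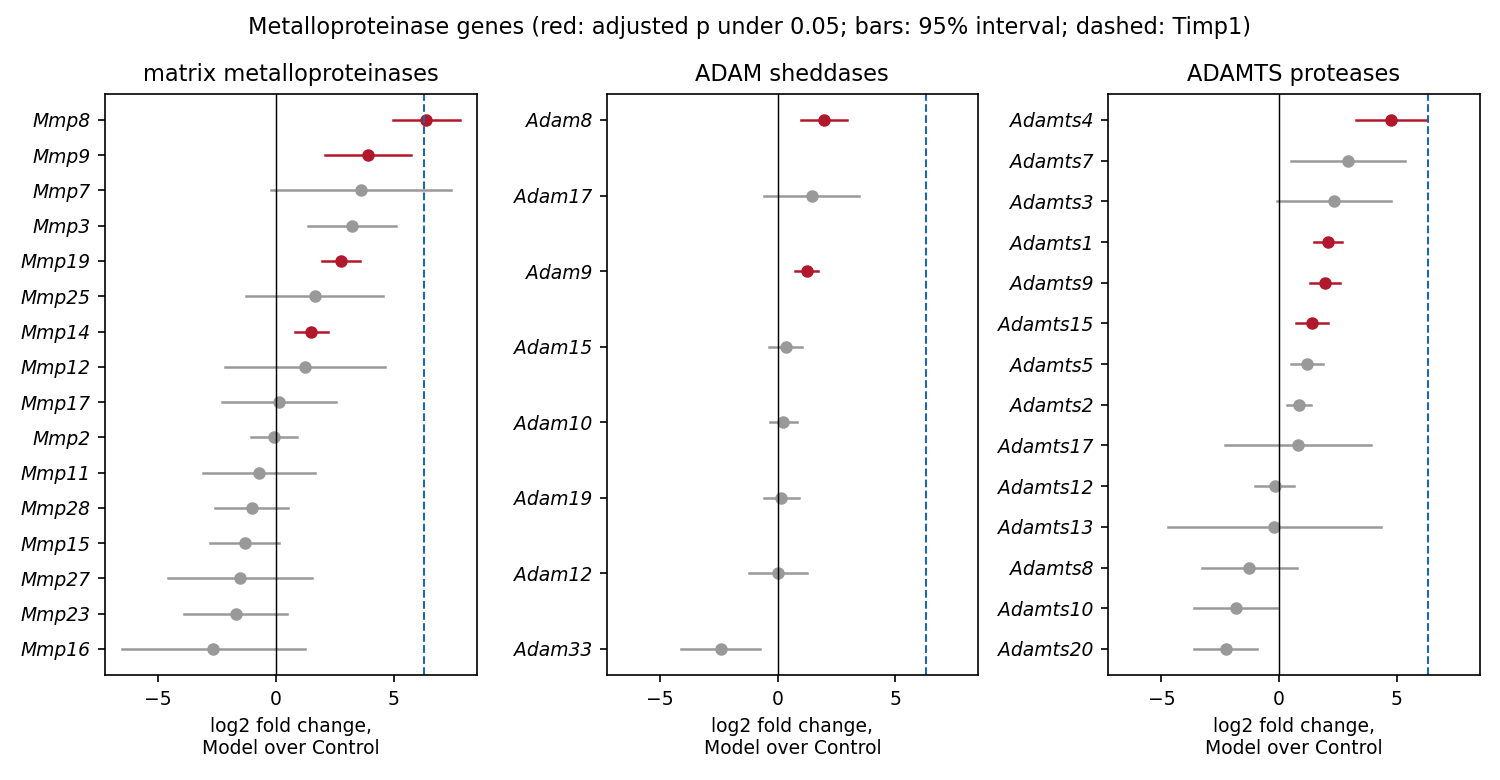
Log2 fold change, Model over Control, of each tested MMP, ADAM and ADAMTS gene (points) with its 95% interval (bars), in red where the adjusted p is under 0.05; the dashed line marks Timp1 at 6.30. The 10 genes in red are all on the higher side, and Mmp8 at 6.39 is the one with a log2 fold change above that of Timp1.

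Of 7 tested genes for proteins that bind TIMPs, 3 rose and none fell by edgeR, beside 2.71% and 1.36% of all tested genes (DESeq2 4 higher and 1 lower, beside 4.75% and 4.3%; 1 lower at an unadjusted p under 0.05). One was Mmp14, above. Cd63, the tetraspanin that binds TIMP1 at the cell surface and is also a protein of platelet granules, was at 200, 203 and 218 CPM in Model and 63.7, 87.8 and 116 CPM in Control (log2 fold change 1.21, SE 0.27, adjusted p = 0.0241). Itga3, part of the integrin that binds TIMP2, was at 211, 82.5 and 104 CPM in Model and 30.4, 47.7 and 37.8 CPM in Control (log2 fold change 1.77, SE 0.38, adjusted p = 0.0216). The call of Cd63 was lost without Control 1 (adjusted p = 0.0629), Control 2 (0.0706), Model 1 (0.0653), Model 2 (0.0586) or Model 3 (0.0658), and that of Itga3 without Control 1 (0.0865), Control 3 (0.0564) or Model 1 (0.107). Kdr, the VEGF receptor whose ligand binding TIMP3 blocks, was at 186, 143 and 186 CPM in Model and 335, 273 and 349 CPM in Control, all lower in Model, with an adjusted p of 0.0538. Lrp1, the endocytic receptor that clears TIMP and MMP complexes, was at 3055, 1488 and 3047 CPM in Model and 1280, 1110 and 1169 CPM in Control (adjusted p = 0.0833).

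Among 8 tested genes of other metalloproteinase inhibitors and their clearance, none was called by edgeR (2 higher and 1 lower at an unadjusted p under 0.05). DESeq2 called 1 higher and limma-voom 1, beside 4.75% and 2.5% of all tested genes. Pzp and Mug1, liver genes of the alpha-macroglobulin family that trap proteases, were at 258 and 283 CPM in Model 2, the library with high liver transcripts. In the other libraries Pzp was at 2.83 to 97.7 CPM and Mug1 at 0.687 to 5.84 CPM.

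Of 17 tested genes for cytokines that can induce Timp1 and for the receptors, transcription factors and feedback inhibitor of their signalling, 9 rose and none fell, beside 2.71% and 1.36% of all tested genes (0 lower also at an unadjusted p under 0.05 and with DESeq2), and the median of their log2 fold changes was 1.39. With limma-voom 5 were called higher, and Il6 (adjusted p = 0.0917), Osm (0.119), Lif (0.123) and Fosl1 (0.15) lost their calls. Apart from Il6 and Il1b, the cytokine genes Osm and Lif of the IL-6 family rose. Osm was at 60, 172 and 27.1 CPM in Model and 1.22, 1.39 and 5.89 CPM in Control (log2 fold change 4.93), and Lif at 38.2, 10 and 52.6 CPM in Model and 0.34, 0.414 and 0.795 CPM in Control (6.02). Osmr, the oncostatin M receptor, was at 405, 294 and 466 CPM in Model and 90.9, 102 and 147 CPM in Control (1.78, SE 0.28, adjusted p = 0.00296). Of the 9 genes that rose, Il6, Lif, Osmr, Il1b and Fosl1 were highest in Model 3, as was Timp1. Osm and Socs3 were highest in Model 2, and Stat3 and Fosl2 in Model 1. The part of any of these genes in the Timp1 difference was not tested. Tnf (log2 fold change 1.39, adjusted p = 0.799), Tgfb1 (-0.26, 0.831) and the receptor gene Il6st (-0.20, 0.799) were not called. Il11 did not pass the filter, at 93, 0 and 0 counts in Model and 1, 4 and 5 counts in Control. Il6, with 6, 1 and 4 counts in Control, passed it only through the Model libraries and could be called only as higher.

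The transcription factor genes of that list that rose were Stat3 (log2 fold change 1.14), Fosl1 (6.01) and Fosl2 (2.22). Socs3, a feedback inhibitor of STAT3 signalling and not an inducer of Timp1, also rose (2.57). Fosl1, an AP-1 subunit, was at 35.9, 7.14 and 41.6 CPM in Model and 0.453, 0.438 and 0.412 CPM in Control. The other AP-1 genes were not called: Fos had a log2 fold change of -0.30, Fosb -1.51, Jun 0.84, Junb 1.05 and Jund 0.00. Stat3 lost its call without Control 2 (adjusted p = 0.0799), Control 3 (0.0721), Model 1 (0.0789) or Model 3 (0.0569). Il6 lost its own without Model 3 (0.0543), and Il1b without Control 2 (0.0802), Model 1 (0.0727), Model 2 (0.0641) or Model 3 (0.0687).

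The genes most like each member were sought by Pearson correlation of log2 CPM over the 6 libraries, among 10433 tested genes with a mean of at least 8 CPM. These values describe 6 libraries that share the group difference, and carry no test. For Timp1 they included the metal ion transporter gene Slc39a14 (r 0.994, Spearman rho 0.94), the fibronectin receptor chain Itga5 (0.994, rho 0.77) and the activin receptor gene Acvr1b (0.993, rho 0.89), and 147 genes had an r of at least 0.95. Slc39a14 averaged 798 CPM in Model and 58.2 CPM in Control (log2 fold change 3.78), and Itga5 373 CPM in Model and 80.8 CPM in Control (log2 fold change 2.21).

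For Timp2 the most similar were Zmym3 (r 0.992, rho 1), the lysosomal enzyme gene Hexa (0.975, rho 0.94), Ctso (0.965, rho 0.94), Aldh7a1 (0.961, rho 0.94) and Tlr9 (0.948, rho 0.94). For Timp3 they were Epb4.1l2 (0.995, rho 0.89), Plxdc2 (0.989, rho 0.94), BC003331 (0.982, rho 0.94) and the fatty acid synthesis genes Acly and Acaca (both 0.978, rho 0.89). Acly and Acaca were called lower in Model, with log2 fold changes of -2.31 and -2.16. Among the members themselves, Timp2 and Timp3 had the highest r (0.91, rho 0.83), and Timp1 and Timp3 the lowest (-0.85, rho -0.71).

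For Timp4 they included Ift52 (r 0.998, rho 1), Elac1 (0.990, rho 0.94), Zdhhc5 (0.986, rho 0.94) and Metap1d (0.981, rho 0.94). For Reck they were Polr3gl (0.995, rho 1), Cox14 (0.985, rho 1), Bivm (0.985, rho 0.94), Fkbp15 (0.984, rho 1) and Cwf19l1 (0.982, rho 0.94). Their log2 fold changes were -0.26 to -0.11 for the named genes like Timp4 and 0.07 to 0.50 for those like Reck.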

How the data were processed

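RNA-seq of 3 Model and 3 Control samples was analysed. Libraries were depleted of ribosomal RNA, run on a NovaSeq 6000 and trimmed with cutadapt 1.9.3, per the labels' protocols. Alignment with STAR 2.5.1b to mm10 and use of edgeR 3.16.5 come from the submitters' processing notes. How the authors counted reads, with which annotation and with or without strand, is not given in the sources used here; reads of a TIMP and of the synapsin gene around it may therefore be mixed. The authors deposited unnormalized whole-number counts, taken here unchanged. The 6 further per-sample columns of the table were not used.

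Model was compared with Control in R 4.3.3 with edgeR 4.0.16 (quasi-likelihood test, two-sided, Benjamini-Hochberg adjustment, threshold 0.05), TMM scaling and filterByExpr with a minimum count of 10, which kept 13907 genes and all 5 members. The SE is the log2 fold change divided by the root of its F statistic. A count of 0 allows up to 3 counts, 0.0787 to 0.118 CPM, for counting error only. TPM used GENCODE M21 exon unions, found for 17555 rows. Single values were compared by exact permutation tests (scipy 1.17.1), with 0.5 added to each count in ratios.

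Alternatives were leaving out libraries, a replicate block, DESeq2 1.42.0, limma-voom (limma 3.58.1), scaling by RLE or the upper quartile, a minimum count of 100 or none, gene length, and the pseudocount. The members and lists were chosen with earlier results of these data known. Named are all members, the host genes, list members past the test (or with a known role toward a TIMP, chosen after their values were seen), and the 5 genes most correlated with each member, without predicted gene models; 3 of these are not reported here. List symbols were matched by gene identifier where the table has an older symbol. Before use, the edgeR step was checked on simulated counts with known fold changes.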

Additional observations from a re-analysis of the deposited data

How the results depend on the processing

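Timp1 kept its direction and its call in all 14 alternatives, and leaving out 1 library gave log2 fold changes of 5.74 to 6.51. Timp2 stayed negative (-1.16 to -0.50 without 1 library) and was called only without a filter (-0.89, adjusted p = 0.0422). Timp3 stayed negative and uncalled (-0.57 to -0.37). Timp4 ranged from -0.51 to 0.14 and Reck from -0.24 to 0.55 without 1 library, turning sign without Control 2 (Timp4 0.10), Model 1 (Timp4 0.14, Reck -0.18) or Control 1 (Reck -0.24), and Reck was at -0.03 without Control 1 and Model 2 together. The cause was not tested. Called MMP genes numbered 3 to 5 without 1 library, 2 with limma-voom and 2 without Control 1 and Model 2 together, against 4. Called ADAM genes numbered 1 to 2 without 1 library and called ADAMTS genes 3 to 4, and DESeq2 called 8 ADAMTS genes against 4. These totals cover both directions. For ADAM genes they include 1 called lower without Model 2, without a filter and with DESeq2. For ADAMTS genes they include 1 called lower without Control 3, with the replicate block, without a filter and with DESeq2.

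Without 1 library the log2 ratio differences ranged from 6.35 to 7.33 (Timp1 to Timp2), 6.13 to 6.81 (Timp1 to Timp3), 0.13 to 0.58 (Timp3 to Timp2) and 0.06 to 1 (Timp4 to Timp2), and the difference in Timp1 share from 38.6 to 51.7 percentage points. The replicate numbers were not taken as pairs, since nothing states that they pair samples. Deviations from the group means correlated at 0.147, 0.119 and 0.004 for the same numbers 1, 2 and 3. For different numbers they correlated at -0.159 to 0.073. These values do not decide whether the numbers are pairs. With the replicate block the log2 fold change of Timp1 was 6.16 (adjusted p = 3.82e-05), and it changed no call of the 5 members. RLE and upper-quartile scaling moved the median of all genes by under 0.1 and turned no member's sign. Depth limited Timp1 in Control most, at 37 to 46 counts a library.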
